A study of Arabidopsis thaliana with 20 samples.

Results

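Nitrogen leaves an ageing leaf in forms that include glutamine, asparagine and nitrate. Here 10 Arabidopsis thaliana genes that act on these compounds or on glutamate were followed. They were taken as a list of loci by their known roles, with earlier results of these data known. They were the cytosolic glutamine synthetase genes GLN1;1 (AT5G37600), GLN1;2 (AT1G66200), GLN1;3 (AT3G17820) and GLN1;4 (AT5G16570), the plastid glutamine synthetase gene GLN2 (AT5G35630), the glutamate dehydrogenase genes GDH1 (AT5G18170), GDH2 (AT5G07440) and GDH3 (AT3G03910), the asparagine synthetase gene ASN2 (AT5G65010) and the nitrate transporter gene NRT1.7 (AT1G69870). All 10 of them, out of 37336 loci counted, passed the filter on low counts and are among the 14503 genes tested. The other nitrogen genes listed below were also chosen with earlier results known. Counts of calls set beside shares of all genes therefore describe the listed genes and test no excess.

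Glutamine synthetase joins ammonium to glutamate. The plastid enzyme recaptures the ammonium that photorespiration releases in green leaf cells, whereas the cytosolic enzymes make glutamine for export in the phloem and take up ammonium set free when proteins and amino acids are broken down. Mitochondrial glutamate dehydrogenase can release ammonium and 2-oxoglutarate from glutamate, asparagine synthetase moves the amide nitrogen of glutamine to aspartate, and NRT1.7 loads nitrate into the phloem of old leaves for younger ones.

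Messenger RNA was measured by 3′ RNA sequencing, in which oligo(dT)-primed reads come from the end of a transcript, in rosette leaves of plants grown in long days. Ecotype Col-0 wild type and a snrk2.4/snrk2.10 double mutant in the same ecotype were sampled 25 and 45 days after sowing (DAS), and each of the 4 groups had 5 libraries. The labels name no treatment. SnRK2.4 and SnRK2.10 are SNF1-related protein kinases of subfamily 2, and the series asks what they do in developmental leaf senescence. The labels name no mutant alleles, and do not say which rosette leaves or how many plants entered a library or whether libraries came from separate plants, so p-values measure the spread between libraries.

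SNRK2.4 stood at 37.3 ± 8.63 CPM, a count divided by its library's size after TMM scaling (mean ± SD, n = 5 in each group throughout), in young wild type against 4.92 ± 2.48 in the young mutant, and at 80.0 ± 5.39 against 2.67 ± 1.72 in old leaves. SNRK2.10 was at 62.9 ± 11.3 and 47.0 ± 6.01 CPM at 25 DAS, where it did not pass the test (adjusted p = 0.106, edgeR), and at 75.1 ± 5.75 and 31.4 ± 4.85 at 45 DAS (adjusted p = 5.54e-06). Total counts per library ran from 615317 to 2343212, so that a single library with no count allows up to 1.28 to 3.97 CPM. The spread was uneven: the biological coefficient of variation was 11% (wild type) and 13.3% (mutant) in young leaves, against 30% and 19.2% in old ones. SAG12, a cysteine protease gene that marks late senescence, ran from 806 to 16424 CPM over the wild-type libraries at 45 DAS, with replicate 5 highest, and from 41.7 to 268 in the mutant. In young leaves the order was the opposite, with 2 counts over all wild-type libraries and 30.3 ± 23.3 CPM in the mutant, whose libraries all lay above those of wild type (adjusted p = 0.0578). All 4 mesophyll, 4 vein and 4 guard cell markers had counts in every group, whereas the root markers EXPA7 and IRT1 and the flower marker AP1 were at 0 in all libraries. The flower marker AG had counts in every group, 16 in each young group, 26 in old wild type and 32 in the old mutant. SEP3, also of the flower, had 0 in young leaves, 13 counts in old wild type and 22 in the old mutant. The flower marker AP3 and the root markers COBL9 and CASP1 had at most 4 counts in a group. Mesophyll markers together stood at 62360 to 71850 CPM at 25 DAS, at 1485 to 6212 in old wild type and at 5062 to 6617 in the old mutant. Companion cell and vein markers together stood at 325.4 to 446 CPM at 25 DAS, at 464.6 to 633.5 in old wild type and at 408.5 to 524.6 in the old mutant. These 4 did not move as 1: SWEET11 and SWEET12 were called higher with age in both genotypes and AHA3 in neither. SUC2 was called higher in the mutant (log2 change 0.31) and not in wild type (0.14). The part of these cell types in the changes below was not tested. In whole leaves, fewer cells of a type and less RNA per cell cannot be told apart.

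The window of 250 bases before the annotated gene start is shown for 4 of the genes. GLN1;1 and GLN1;4 had the largest rises with age, and GDH1 and GLN1;3 were the genes whose change with age differed between the genotypes. Sequences are from RefSeq, assembly TAIR10.1, and read 5′ to 3′ on the gene's own strand. Capitals mark ACGTG, the core of the elements bound by the bZIP factors of abscisic acid signalling, on either strand.
GLN1;1, chr5:14935886-14936135, minus strand: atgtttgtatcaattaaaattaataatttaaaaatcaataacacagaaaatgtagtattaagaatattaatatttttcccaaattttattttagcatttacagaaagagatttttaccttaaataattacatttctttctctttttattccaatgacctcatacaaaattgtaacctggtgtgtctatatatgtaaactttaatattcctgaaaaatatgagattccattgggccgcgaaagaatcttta
GLN1;4, chr5:5424750-5424999, minus strand: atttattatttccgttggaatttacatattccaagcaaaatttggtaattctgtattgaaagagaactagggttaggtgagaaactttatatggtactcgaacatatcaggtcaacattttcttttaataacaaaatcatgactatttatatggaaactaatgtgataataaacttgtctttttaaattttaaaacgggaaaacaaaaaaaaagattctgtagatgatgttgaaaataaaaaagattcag
GDH1, chr5:6005785-6006034, plus strand: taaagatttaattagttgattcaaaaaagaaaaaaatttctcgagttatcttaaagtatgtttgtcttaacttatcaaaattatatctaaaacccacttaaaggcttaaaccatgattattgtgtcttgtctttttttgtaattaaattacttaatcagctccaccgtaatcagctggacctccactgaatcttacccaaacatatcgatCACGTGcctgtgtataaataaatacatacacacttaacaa
GLN1;3, chr3:6096951-6097200, plus strand: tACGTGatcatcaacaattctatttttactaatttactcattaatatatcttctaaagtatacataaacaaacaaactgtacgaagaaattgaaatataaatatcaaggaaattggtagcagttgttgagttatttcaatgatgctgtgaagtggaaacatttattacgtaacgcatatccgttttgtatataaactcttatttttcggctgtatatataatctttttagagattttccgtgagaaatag
The palindrome CACGTG in GDH1 holds ACGTG on both strands, with overlapping matches that begin 40 and 39 bases before the gene start. The match in GLN1;3 begins 249 bases before it. Among the 10 genes only these windows held the letters, 2 of 10, against 22.9% of the 27437 windows of the same length over all protein-coding genes. TTGAC, the core of the element bound by WRKY factors, was present on either strand in the windows of GLN1;2, GLN1;4, GLN2 and ASN2, 4 of 10, against 44.9% of all windows. These matches describe letters and not binding.

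**Figure D1:**
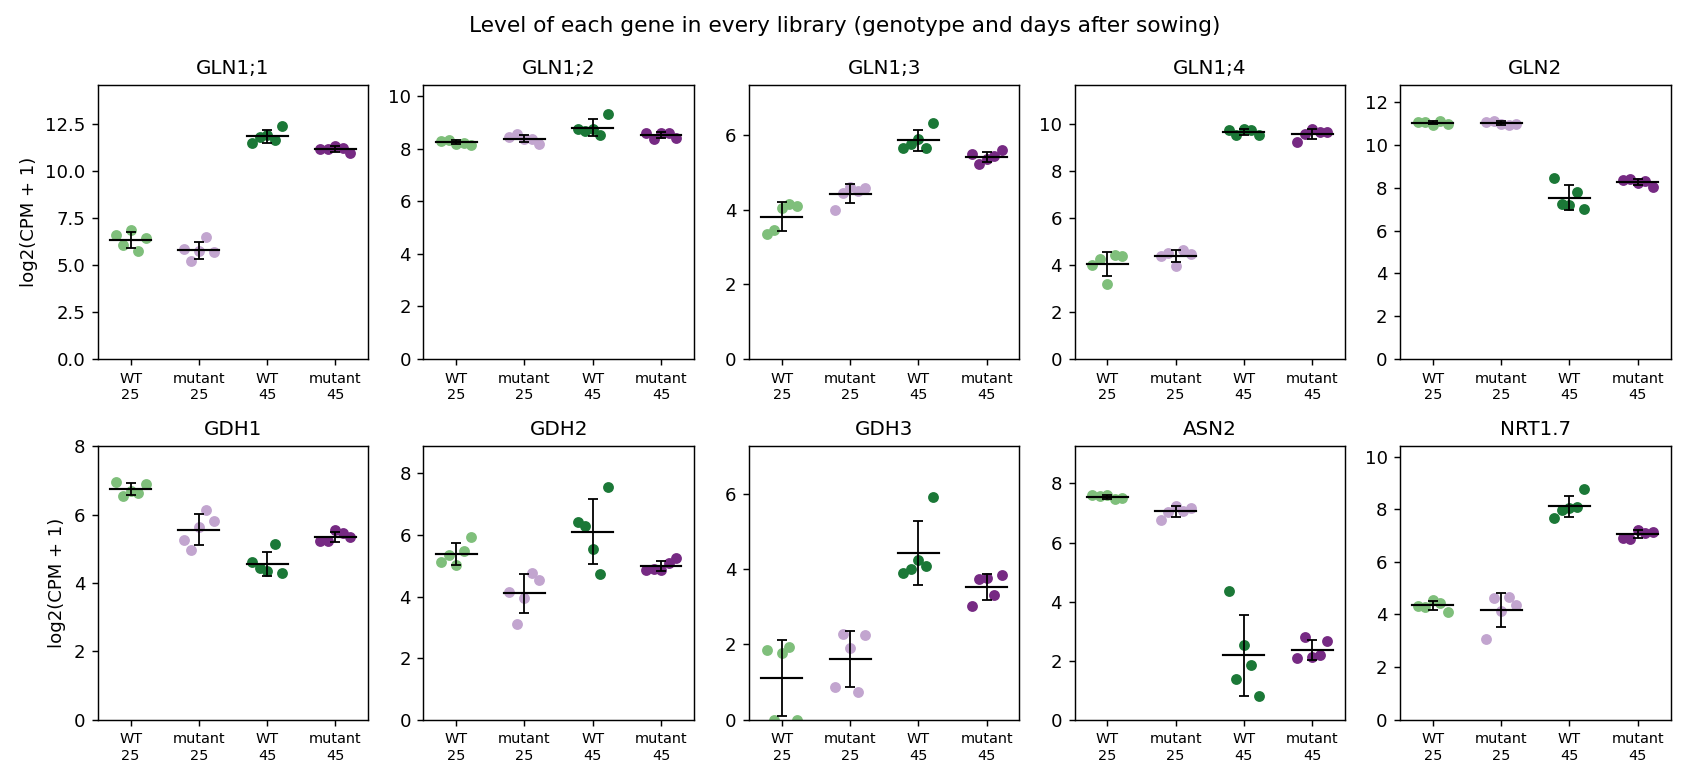
Levels of the 10 genes as log2(CPM + 1) in each of 20 libraries (points), by genotype and age, with the mean and SD of each group. GLN1;1, GLN1;4 and NRT1.7 stand far above their young levels at 45 DAS in every library, GLN2 and ASN2 far below, and GDH1 separates the genotypes at both ages in opposite directions.

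With age, wild-type leaves exchanged the plastid for the cytosolic glutamine synthetase transcripts. All 4 cytosolic genes, GDH2, GDH3 and NRT1.7 rose from 25 to 45 DAS, and GLN2, GDH1 and ASN2 fell. In the mutant GLN1;1, GLN1;3, GLN1;4, GDH3 and NRT1.7 rose and GLN2 and ASN2 fell, while GLN1;2, GDH1 and GDH2 did not pass the test. These 10 of 10 and 7 of 10 calls stand beside 70.6% of all tested genes called in wild type (36.1% higher and 34.5% lower with age) and 70% in the mutant (35.4% higher and 34.6% lower), by edgeR's quasi-likelihood test with a Benjamini-Hochberg adjusted p under 0.05. The groups did not overlap for 9 of the 10 genes in wild type and 8 in the mutant, against 54.8% and 57.1% of all genes. The median log2 change of the 10 was 1.60 in wild type, against 0.07 over all genes, and 0.88 in the mutant, against 0.06.

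GLN1;1 encodes the cytosolic isoenzyme that took the largest share of glutamine synthetase counts in old leaves. In wild type it was at 97.3, 67.2, 115, 53.5 and 85.2 CPM at 25 DAS and at 2924, 3618, 3947, 3229.8 and 5449 at 45 DAS. In the mutant it was at 56.4, 36.3, 53.5, 88.2 and 50.5 CPM at 25 DAS and at 2347, 2321, 2636, 2436 and 2014 at 45 DAS. Every old library lay far above every young one, and wild-type replicate 5 was the highest of all. The log2 change with age was 5.52 in wild type (SE 0.25, 45.9-fold, adjusted p = 1.28e-15, edgeR) and 5.36 in the mutant (SE 0.25, 41.0-fold, adjusted p = 2.23e-15).

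GLN1;4, another cytosolic isoenzyme, began lower and rose as far. It was at 15.0, 18.2, 8.10, 20.9 and 19.8 CPM in young wild-type leaves and at 874, 755, 900.4, 861 and 745 in old ones. The mutant libraries read 19.9, 22.0, 14.5, 23.8 and 21.5 CPM at 25 DAS and 605, 774, 902, 824 and 806 at 45 DAS. Ages were wide apart and genotypes overlapped at both. The log2 change was 5.65 in wild type (SE 0.19, 50.3-fold, adjusted p = 9.82e-18, edgeR) and 5.25 in the mutant (SE 0.19, 38.1-fold, adjusted p = 5.78e-17).

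GLN1;3 and GLN1;2 changed less. GLN1;3 was at 9.14, 9.92, 15.4, 16.7 and 16.0 CPM in young wild type and at 48.9, 53.6, 59.0, 49.4 and 78.8 in old wild type. In the mutant its values were 14.9, 21.0, 23.6, 21.7 and 22.7 CPM at 25 DAS and 43.9, 36.7, 39.9, 42.2 and 47.6 at 45 DAS. It thus lay higher in most young mutant libraries than in wild type and lower in all old ones. Its rise was 2.14 on the log2 scale in wild type (SE 0.18, 4.42-fold, adjusted p = 1.06e-10, edgeR) and 1.00 in the mutant (SE 0.17, 2.00-fold, adjusted p = 1.65e-05). GLN1;2, an isoenzyme gene known from roots and leaf veins, was the most even of the family, at 281 to 322 CPM in young and 364 to 642 in old wild-type leaves, and at 287 to 373 and 328 to 388 in the mutant. Its log2 change was 0.59 in wild type (SE 0.13, 1.51-fold, adjusted p = 0.000269) and 0.15 in the mutant, where the 95% interval ran from -0.12 to 0.42 (adjusted p = 0.317).

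GLN2 moved the other way. It was at 2145, 2156, 1969, 2188 and 2033 CPM in young wild type and at 346, 152, 147, 219.7 and 126 in old wild type. The mutant had 2158, 2250.1, 2007, 1953 and 1991 CPM at 25 DAS and 331, 338, 299, 313 and 263 at 45 DAS. Young libraries of both genotypes lay together, and old wild-type replicate 1, at 346, lay above all of the old mutant libraries while the other wild-type libraries lay below them. GLN2 fell by 3.40 on the log2 scale in wild type (SE 0.21, 10.6-fold lower, adjusted p = 1.69e-13, edgeR) and fell by 2.74 in the mutant (SE 0.20, 6.70-fold lower, adjusted p = 6.09e-12).

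In 3′ libraries a transcript gives reads from its end whatever its length, so the 5 glutamine synthetase genes were also set against each other as shares of their summed counts. GLN2 made up 83.5% ± 1.04 of these counts in young wild type and 82.8% ± 1.13 in the young mutant. In old leaves it made up 3.93% ± 2.24 in wild type, with libraries between 1.79% and 7.48%, and 8.04% ± 0.832 in the mutant, with libraries between 7.01% and 8.90%. GLN1;1 went from 3.35% ± 1.06 to 70.7% ± 5.25 in wild type and from 2.30% ± 0.838 to 61.0% ± 1.9 in the mutant. Its old wild-type libraries, at 63.3% to 77.4%, all lay above the old mutant ones, at 58.0% to 63.2%. GLN1;4 took 15.9% ± 3.30 of the old wild-type counts and 20.3% ± 2.53 of the old mutant counts, after 0.650% and 0.814% in young leaves. Cytosolic counts per GLN2 count went from 0.198 ± 0.0149 to 31.2 ± 16.3 in wild type, with old libraries from 12.4 to 54.9, and from 0.207 ± 0.0168 to 11.5 ± 1.3 in the mutant, with old libraries from 10.2 to 13.3. The 5 genes together held 0.198% of a library's raw total counts in young wild type and 0.664% ± 0.0833 in old wild type. In the mutant they held 0.194% and 0.482% ± 0.0388. These percentages leave out the TMM factors that enter CPM. Those factors were 0.748 to 0.831 in young and 1.13 to 1.32 in old libraries, so the rise is larger here than in CPM.

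**Figure D2:**
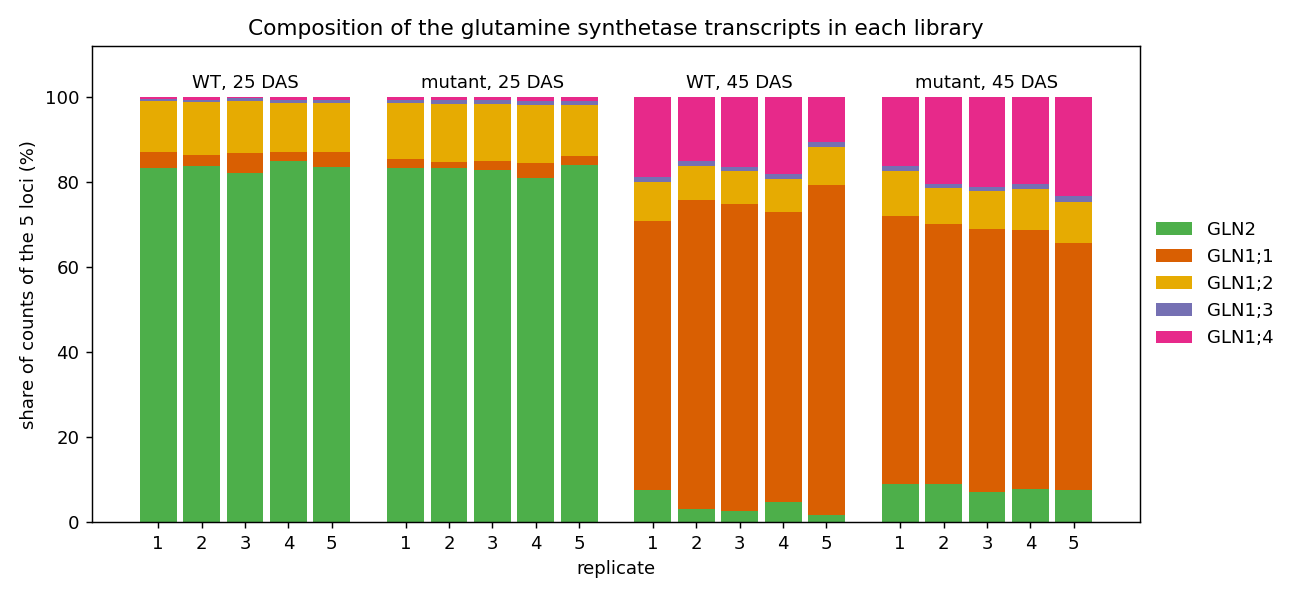
Share of each gene in the summed counts of the 5 glutamine synthetase genes (percent), 1 stacked bar per library, by group. GLN2 holds most of every young bar and GLN1;1 most of every old one, with a GLN2 share of 1.79% to 7.48% in old wild type and 7.01% to 8.90% in the old mutant.

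The glutamate dehydrogenase genes did not follow a shared course. GDH1, which encodes the beta subunit, was at 123, 93.1, 103, 98.7 and 117 CPM in young wild type and at 23.6, 20.5, 19.3, 34.4 and 18.4 in old wild type. In the mutant it was at 37.3, 30.5, 48.9, 69.2 and 55.0 CPM at 25 DAS and at 36.2, 36.3, 45.7, 43.3 and 39.7 at 45 DAS. Ages were apart in wild type and overlapped in the mutant, where old leaves lay within the range of young ones. GDH1 fell by 2.20 on the log2 scale in wild type (SE 0.19, 4.58-fold lower, adjusted p = 1.08e-10, edgeR), and its log2 change in the mutant was -0.28, with a 95% interval from -0.65 to 0.09 (adjusted p = 0.166). Without young mutant replicate 2 the mutant value was -0.40 and called (adjusted p = 0.0450), and with counts scaled by library totals alone it was 0.40. GDH1 overlaps AT5G18180 on the other strand over 166 bases, and that locus had 8 counts in all.

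GDH2, which encodes the alpha subunit, was at 33.9, 39.7, 31.6, 43.1 and 60.5 CPM in young wild type and at 85.6, 76.5, 45.7, 25.6 and 187 in old wild type. Its mutant libraries read 16.6, 7.64, 14.5, 26.5 and 22.1 CPM at 25 DAS and 28.0, 28.6, 28.2, 33.2 and 37.0 at 45 DAS. Old wild type spread over most of the range of the whole series, and replicate 5 stood highest. The rise in wild type, 1.06 on the log2 scale (SE 0.38, 2.08-fold, adjusted p = 0.0187, edgeR), was 0.49 and not called without replicate 5 (adjusted p = 0.147). In the mutant the log2 change was 0.76 (SE 0.44, adjusted p = 0.131) with no overlap between ages, and it was called when only the mutant groups entered the fit (adjusted p = 0.00372).

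GDH3, a further subunit gene, was barely detected in young leaves, with 11 counts over 5 wild-type libraries, 2 of them at 0, and 15 over 5 mutant libraries. In old wild type it was at 13.9, 15.0, 18.1, 15.9 and 58.9 CPM, and in the old mutant at 7.13, 12.4, 12.5, 8.91 and 13.2. The old libraries all exceeded the young ones. The log2 rise was 3.87 in wild type (SE 0.57, adjusted p = 3.27e-06, edgeR), or 3.15 without wild-type replicate 5, and 2.13 in the mutant (SE 0.60, adjusted p = 0.00334). GDH3 overlaps AT3G03920 on the other strand over 24 bases. That locus had 1772 counts against 257 for GDH3. Strand use is not given in the sources used here, so reads from the overlap cannot be assigned.

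ASN2 was at 195, 190.1, 193, 177 and 179 CPM in young wild type and at 109, 131, 150.5, 133 and 142 in the young mutant. In old leaves it was at 19.6, 1.58, 4.81, 2.65 and 0.737 CPM in wild type and at 3.29, 5.98, 3.32, 3.56 and 5.29 in the mutant, with 34 counts in each group. Old wild-type replicate 1 held most of the former. ASN2 fell by 4.97 on the log2 scale in wild type (SE 0.38, 31.4-fold lower, adjusted p = 4.24e-10, edgeR), fell by 6.43 without that library, and fell by 4.91 in the mutant (SE 0.38, 30.1-fold lower, adjusted p = 6.85e-10).

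NRT1.7 was at 18.9, 18.7, 22.7, 20.9 and 16.0 CPM in young wild type and at 200.5, 248, 262, 272 and 439 in old wild type. It was at 7.46, 23.9, 16.3, 24.4 and 19.6 CPM in the young mutant and at 118, 117, 148, 137 and 140.1 in the old mutant. Young groups overlapped, and every old wild-type library lay above every old mutant one. The log2 rise was 3.86 in wild type (SE 0.22, 14.5-fold, adjusted p = 1.44e-13, edgeR) and 2.83 in the mutant (SE 0.22, 7.11-fold, adjusted p = 4.47e-11).

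Between genotypes at 25 DAS, GDH1 was lower in the mutant and the other 9 genes did not pass the test, against 3.16% of all genes called, 1.38% higher and 1.79% lower. GDH1 was at 48.2 ± 15.2 CPM in the mutant and 107 ± 12.8 in wild type, with no overlap, a log2 difference of -1.13 (95% interval -1.48 to -0.78, 2.19-fold lower, adjusted p = 0.000476, edgeR). By p it ranked 20 of 14503. GDH2 had a difference of similar size, at 17.5 ± 7.23 against 41.8 ± 11.4 CPM with no overlap, but the log2 difference of -1.19 had an SE of 0.43 and an adjusted p of 0.161. It was called by DESeq2 (adjusted p = 0.0499), with only the young groups in the fit (adjusted p = 0.00582) and without old wild-type replicate 5 (adjusted p = 0.0352). ASN2, at 133 ± 15.6 against 187 ± 8.20 CPM, also did not overlap, with a log2 difference of -0.49 (adjusted p = 0.386). It was called with only the young groups in the fit (-0.53, adjusted p = 0.000275) and by limma voom with a variance per group (-0.50, adjusted p = 0.00811). Groups that did not overlap numbered 3 of 10, against 7.72% of all genes.

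The glutamine synthetase genes in young leaves had log2 differences of -0.54 for GLN1;1 (adjusted p = 0.215, edgeR), 0.14 for GLN1;2 (0.669), 0.67 for GLN1;3 (0.0715) and 0.32 for GLN1;4 (0.467). GLN1;3 was called by limma voom (0.71, adjusted p = 0.0273) and without old wild-type replicate 5 (0.65, adjusted p = 0.0425), and its sign turned on thinned counts (-0.071). GLN2 was at 2072 ± 126 CPM in the mutant and 2098 ± 92.7 in wild type, with a 95% interval of the log2 difference from -0.40 to 0.37. NRT1.7 was at 18.3 ± 6.92 and 19.5 ± 2.49 CPM, with an interval from -0.60 to 0.43. GDH3, with few counts, had a log2 difference of 0.51 (adjusted p = 0.847). An unadjusted p under 0.05 was reached by 4 of the 10, against 16.3% of all genes.

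**Figure D3:**
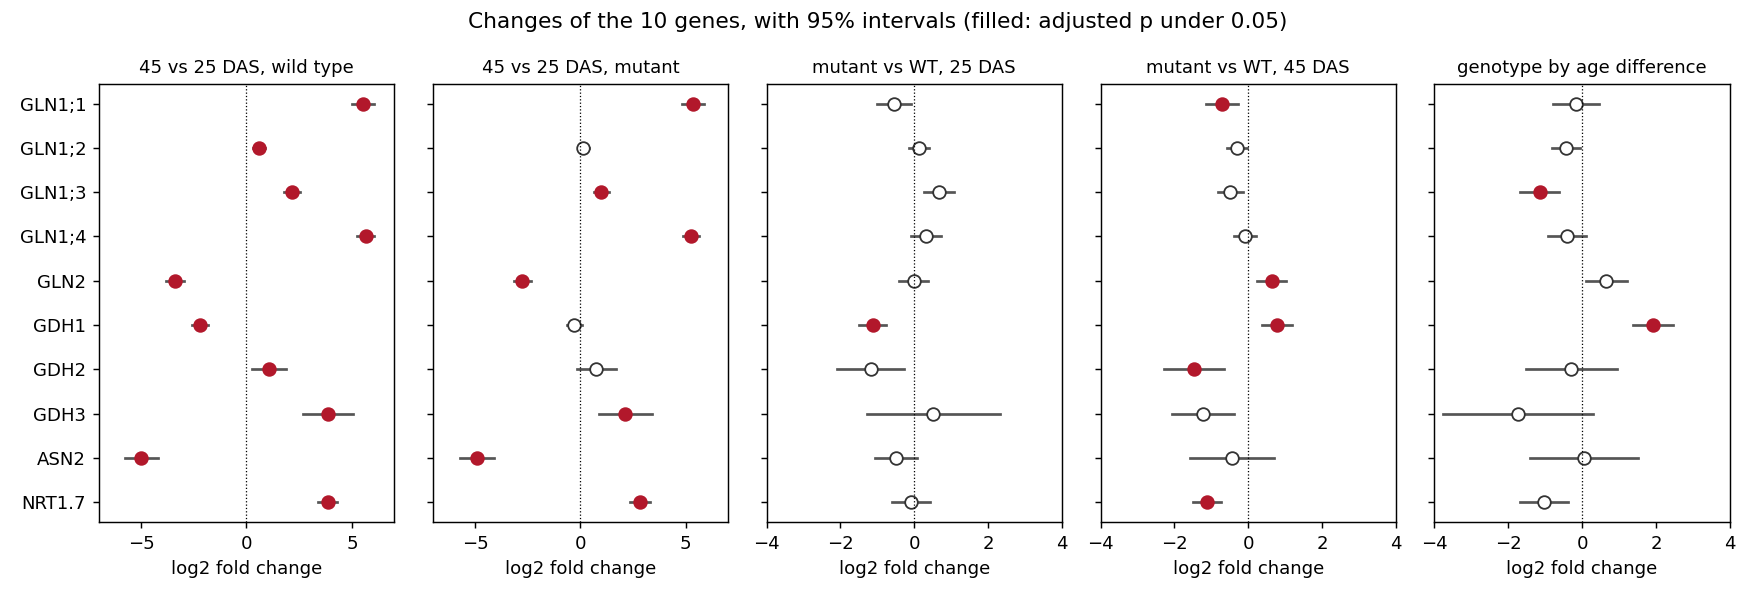
Log2 fold changes of the 10 genes with 95% intervals in the 5 comparisons, filled where the adjusted p is under 0.05. The age panels span -5 to 6, while at 25 DAS only GDH1 is filled among the genotype differences and at 45 DAS GLN1;1, GLN2, GDH1, GDH2 and NRT1.7 are.

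At 45 DAS the mutant had less GLN1;1, GDH2 and NRT1.7 and more GLN2 and GDH1 than wild type, 5 of 10 genes against 9.93% of all genes (5.05% higher and 4.88% lower), and 8 reached an unadjusted p under 0.05, against 23.1% of all genes. The median log2 difference of the 10 was -0.46, against 0.000541 over all genes. Groups did not overlap for GLN1;1, GLN1;3, GDH1, GDH3 and NRT1.7, 5 of 10, against 6.02% of all genes. SAG12 differed in the same libraries by -5.30 on the log2 scale (adjusted p = 0.00131, edgeR), and its relation to the differences of the 10 genes was not tested.

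NRT1.7, the phloem nitrate loader, was at 132 ± 13.8 CPM in the old mutant and 284 ± 90.7 in old wild type, a log2 difference of -1.11 (SE 0.19, 2.16-fold lower, adjusted p = 0.000722, edgeR). GDH1 was at 40.2 ± 4.23 CPM in the mutant and 23.2 ± 6.55 in wild type, a log2 difference of 0.78 (SE 0.20, 1.72-fold higher, adjusted p = 0.0115), opposite to its difference at 25 DAS. These calls held in each of the 31 alternatives tried, leaving out each library included.

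The other 3 calls were less stable. GLN1;1 was at 2351 ± 225 CPM in the mutant and 3834 ± 983 in wild type, a log2 difference of -0.71 (SE 0.21, 1.63-fold lower, adjusted p = 0.0304, edgeR), and the call was lost in 11 alternatives, with values from -0.74 to -0.52 and adjusted p from 0.0123 to 0.113. They included leaving out wild-type replicate 2, 3 or 5 or any single old mutant library. GLN2 was at 309 ± 29.6 CPM in the mutant and 198 ± 89.7 in wild type, where replicate 1 reached 346. Its log2 difference was 0.64 (SE 0.19, 1.56-fold higher, adjusted p = 0.0343), lost in 10 alternatives, with values from 0.52 to 0.99 and adjusted p from 8.2e-06 to 0.158, among them leaving out any old library other than wild-type replicate 1 and mutant replicate 5. The highest value, 0.99, was without wild-type replicate 1. GDH2 was at 31.0 ± 3.99 CPM in the mutant and 84.1 ± 62.4 in wild type, where replicate 4, at 25.6, lay below all mutant libraries. Its log2 difference of -1.48 (SE 0.39, 2.79-fold lower, adjusted p = 0.0207) was -0.94 without wild-type replicate 5 (adjusted p = 0.0806), and the call was lost in 7 alternatives in all. The others were leaving out mutant replicate 1, 2 or 3, thinned counts, only the old groups in the fit and limma voom.

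The remaining genes did not pass the test at 45 DAS. GLN1;3 was at 42.0 ± 4.09 CPM in the mutant and 58.0 ± 12.3 in wild type with no overlap (log2 difference -0.48, adjusted p = 0.0544, edgeR), and was called without wild-type replicate 1 (adjusted p = 0.0443) or young mutant replicate 1 (adjusted p = 0.0499). GDH3 was at 10.8 ± 2.66 and 24.3 ± 19.4 CPM, also with no overlap (-1.23, adjusted p = 0.0591), and the difference was -0.53 without wild-type replicate 5. It was called without old wild-type replicate 1, 2 or 4 or young wild-type replicate 2, with adjusted p from 0.0292 to 0.0496. GLN1;2 was at 366 ± 29.3 and 452 ± 109 CPM (-0.31, adjusted p = 0.145). GLN1;4 was at 782 ± 109.9 and 827 ± 71.8 CPM, with an interval of the log2 difference from -0.39 to 0.23. ASN2 had a log2 difference of -0.43 (adjusted p = 0.715), and 1.00 without wild-type replicate 1.

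The change with age itself differed between the genotypes for GDH1 and GLN1;3, 2 of 10 genes against 3.21% of all genes (1.83% higher and 1.37% lower), and 5 of the 10 reached an unadjusted p under 0.05, against 17.3% of all genes. For GDH1 the mutant's change exceeded the wild type's by 1.91 on the log2 scale (95% interval 1.37 to 2.45, adjusted p = 0.000198, edgeR), which ranked 8 of 14503 by p and was called in all 30 alternatives. For GLN1;3 the mutant's rise was smaller by a log2 difference of -1.15 (95% interval -1.68 to -0.62, adjusted p = 0.0156). Thinning all libraries to the depth of the smallest, in a single random draw, ended that call (-0.33, adjusted p = 0.720). NRT1.7 had a difference of -1.03 (SE 0.31, adjusted p = 0.0713), called without wild-type replicate 1 at 45 DAS (-1.05, adjusted p = 0.0238) or mutant replicate 1 at 25 DAS (-1.22, adjusted p = 0.0196). GLN2 had 0.66 (adjusted p = 0.193), or 1.04 without wild-type replicate 1 at 45 DAS (adjusted p = 0.00041), and ASN2 had 0.06 (adjusted p = 0.986), or 1.52 without that library (adjusted p = 0.0209). Limma voom with a variance per group also called GLN2 (0.75, adjusted p = 0.0381). The others had adjusted p of 0.844 for GLN1;1, 0.200 for GLN1;2, 0.435 for GLN1;4, 0.854 for GDH2 and 0.379 for GDH3.

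Around these genes, 55 others of nitrogen metabolism and transport were listed in 11 groups, of which 49 were tested. In wild type 26 of the 49 rose and 17 fell with age, beside 36.1% of all genes called higher and 34.5% called lower, and in the mutant 21 rose and 17 fell, beside 35.4% and 34.6%. The groups below hold few genes each and are read against the same shares. The amino acid transporters, the AAP permeases and LHT1, rose in 6 of 6 tested genes in wild type and 5 of 6 in the mutant. AAP2, a permease of the vascular tissue, rose in wild type from 15.7 ± 4.53 to 448 ± 87.6 CPM (log2 change 4.80, SE 0.21, adjusted p = 4.37e-16, edgeR), and in the mutant from 14.1 ± 4.25 to 451 ± 50.4 (5.01). AAP6, another permease of this family, rose by 2.29 and 2.60 on the log2 scale. LHT1, a broad amino acid importer, rose by 2.95 in wild type and by 3.68 in the mutant. DUR3, a urea importer, rose by 6.31 in wild type, from 3.18 to 273 CPM, and by 5.87 in the mutant. PPDK, pyruvate orthophosphate dikinase, which supplies carbon skeletons for amino acid export, rose by 3.55 and 4.15. NRT2.5, a high-affinity nitrate transporter, had 2 counts over the young wild-type libraries and 597 over the old ones. In the mutant it had 14 and 674 counts, a log2 change of 5.29.

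The genes of nitrate reduction fell in 3 of 3 cases in both genotypes, beside the 34.5% and 34.6% of all genes called lower. NIA2, the main nitrate reductase, fell by 2.61 on the log2 scale in wild type, from 892 ± 57.2 to 146 ± 38.3 CPM, and fell by 2.25 in the mutant. NIR1, nitrite reductase, fell by 3.21 in wild type and fell by 3.37 in the mutant. CLCA, which stores nitrate in the vacuole, fell by 4.35 in wild type and fell by 3.93 in the mutant. NRT1.11, a nitrate transporter of leaf veins, fell by 4.78 in wild type, from 200 to 7.02 CPM, and fell by 2.95 in the mutant. Of the glutamate synthases, which return glutamine and 2-oxoglutarate to glutamate, 2 of 3 fell in each genotype. Among them GLT1, the NADH form, fell by 2.66 in wild type and fell by 2.33 in the mutant. GLU2, a ferredoxin-dependent form, rose by 2.62 in wild type and by 1.69 in the mutant. CICDH, a cytosolic isocitrate dehydrogenase that makes 2-oxoglutarate, fell by 1.51 in wild type and fell by 1.43 in the mutant. ARGAH2, an arginase, fell by 2.00 in wild type and fell by 2.33 in the mutant.

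**Figure D4:**
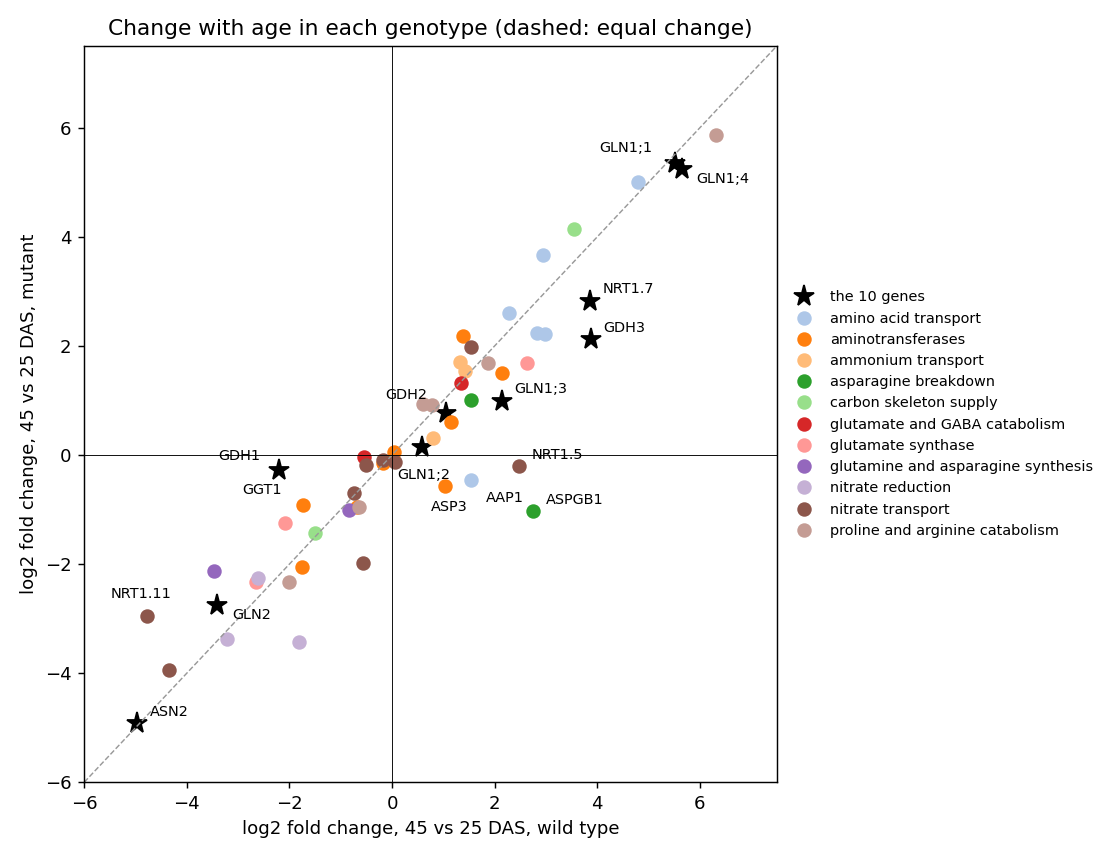
Log2 fold change from 25 to 45 DAS in wild type (x axis) and in the mutant (y axis) of the 10 genes (stars) and the other tested nitrogen genes (circles, by group), with the line of equal change dashed; genes with 3 counts or fewer in a group are left out. GLN1;1 and GLN1;4 lie near the line at 5 to 6 on both axes, while GDH1 (-2.20 and -0.28) lies above it and NRT1.5, AAP1, ASP3 and ASPGB1 below.

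At 25 DAS 6 of the 49 nitrogen genes differed between the genotypes, 2 higher and 4 lower in the mutant, beside 3.16% of all genes (1.38% higher and 1.79% lower). ASN1, the dark- and sugar-responsive asparagine synthetase, was at 49.0, 32.5, 51.9, 61.2 and 69.1 CPM in wild type and at 0.829, 4.77, 11.8, 16.3 and 22.1 in the mutant. The groups did not overlap, and the log2 difference was -2.13 (SE 0.42, adjusted p = 0.00817, edgeR). LHT1 was lower by -1.3 on the log2 scale, ERD5, a proline dehydrogenase, by -0.86 and PPDK by -0.84. The PPDK call was lost without any of 8 young libraries, 4 of each genotype. ARGAH2, at 323 ± 44.1 against 169 ± 30.2 CPM, was higher by 0.93, and AMT1;2, an ammonium transporter, at 27.8 ± 11.8 against 9.18 ± 3.38 CPM, by 1.56.

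At 45 DAS 17 of the 49 differed, 6 higher and 11 lower in the mutant, beside 9.93% of all genes (5.05% higher and 4.88% lower). GLU1, the ferredoxin-dependent glutamate synthase that works with GLN2 in photorespiration, was at 320 ± 42.2 CPM in the mutant and 164 ± 62.5 in wild type, a log2 difference of 0.96 (SE 0.18, adjusted p = 0.00121, edgeR). GGT1, the peroxisomal aminotransferase of photorespiration, was at 1008 ± 41.2 and 593 ± 150 CPM (0.77), GAD2, a glutamate decarboxylase, differed by 0.49, NRT1.11 by 1.47 and AMT1;2 by 1.07. Lower in the mutant were AAP1, an amino acid permease, at 53.0 ± 13.2 against 174 ± 124 CPM (-1.73), ASP3, an aspartate aminotransferase, at 35.3 ± 4.89 against 98.1 ± 59.6 (-1.49), and NIA1, the other nitrate reductase, at 18.0 ± 3.92 against 93.9 ± 94.1 (-2.41). AAP4 differed by -0.72 and ERD5 by -0.73. Wild-type replicate 5 was the highest library for AAP1, ASP3 and NIA1, and without it their differences were -1.17, -1.09 and -1.56, all still called. With only the old groups in the fit, where 3.41% of all genes were called, 5 of the 49 were. AAP1, ASP3, NIA1, GAD2, NRT1.11 and AMT1;2 were not among them (adjusted p from 0.0511 to 0.0886, edgeR).

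The change with age differed between the genotypes for 7 of the 49 genes, beside 3.21% of all genes. It was more positive in the mutant for NRT1.11 (1.83, adjusted p = 0.0175, edgeR) and GGT1 (0.81, adjusted p = 0.0351). It was more negative for AAP1 (-2.01, adjusted p = 0.0242), ASP3 (-1.60, adjusted p = 0.0293), ASPGB1, an asparaginase (-3.77, adjusted p = 0.0268), NRT1.5, a nitrate exporter of the root xylem (-2.68, adjusted p = 0.0384), and NRT2.5 (adjusted p = 0.0483, with the 2 young wild-type counts behind it). ASPGB1 means in young and old leaves were 5.69 ± 2.85 and 36.5 ± 37.9 CPM for wild type, 17.6 ± 5.68 and 8.30 ± 3.42 for the mutant. Those of NRT1.5 were 7.26 ± 1.61 and 39.3 ± 31.4 for wild type, 13.4 ± 5.57 and 11.2 ± 3.86 for the mutant. Old wild-type replicate 5, at 100 CPM for ASPGB1 and 90.6 for NRT1.5, was again the highest, and without it the differences were -2.91 and -2.06. The GGT1, ASP3, NRT1.5 and NRT2.5 calls were each lost in 14 or more of 30 alternatives, that of ASPGB1 in 6 and that of AAP1 in 2.

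The genes whose log2 CPM most resembled 5 of the 10 across the 20 libraries were named by Pearson correlation, which age dominates. For GLN2 they were the nuclear photosynthesis genes LHCB4.1 (r = 0.999), RPE (r = 0.998) and PGK1 (r = 0.998), and after group means were subtracted TLP18.3 (r = 0.982), LHCB4.1 (r = 0.978) and HCF136 (r = 0.972). For GLN1;4 they were GAMMA-VPE, a vacuolar processing enzyme (r = 0.995), AT4G12290 (r = 0.993) and AT4G16190 (r = 0.992), and within groups MEE44, AT3G29180 and AT1G64180 (r = 0.794 to 0.798). For GLN1;1 they were AT1G22930, AT1G65820 and AT5G18130 (r = 0.992 to 0.994), and within groups AT4G00700 (r = 0.877), PCR1 (r = 0.829) and AT1G58225 (r = 0.818). For NRT1.7 they were MPK7, ERD1 and CSLG2 (r = 0.987 to 0.988), and within groups AT3G28450, CRCK3 and BGAL4 (r = 0.858 to 0.873). GDH2 had looser neighbours, AT4G17790 (r = 0.916), ACX2 (r = 0.891) and AT4G01700 (r = 0.886), and within groups AT1G10740 (r = 0.891), AT5G54870 (r = 0.888) and AT4G17790 (r = 0.885). Among the 45 pairs of the 10 genes, the largest correlation within groups was 0.772, between GLN2 and ASN2. Of the old wild-type libraries, replicate 1 was the highest for both. The lowest correlation within groups was -0.493, between GLN1;2 and GDH1. Libraries share depth and scaling, so these values describe likeness only.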

How the data were processed

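The authors deposited raw whole-number counts of reads for each locus, with a separate file for every library. Reads were aligned with STAR 2.7.8a to TAIR10, per the submitters' processing notes. The counting tool, annotation, use of strand and collapsing of molecular identifiers are not given in the sources used here. Counts from 3′ ends were not divided by transcript length.

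All 20 libraries entered 1 edgeR 4.0.16 model (limma 3.58.1, R 4.3.3) with a mean per group, after filterByExpr and TMM scaling (trimmed mean of M values). Robust quasi-likelihood F-tests were run and their p-values adjusted by the Benjamini-Hochberg method over all 14503 tested genes in each comparison, with a threshold of 0.05. CPM used TMM-scaled library sizes, and log2 CPM for likeness had a prior count of 2. The SE of a log2 change is its absolute value divided by the square root of the F statistic, and is not given by edgeR itself. Intervals are at 95%, from this SE and the t distribution, so both are approximate. A count of 0 allows 3 counts. Such floors cover counting error only. Groups were read from the sample titles. The model was tested on simulated data with known changes. The simulation gave all groups the same spread, so it cannot show how the uneven spread between the real groups affects the calls.

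The 10 genes and the lists were chosen with earlier results of these data known. Named were the 10 genes, per comparison up to 5 higher and 5 lower listed nitrogen genes with the smallest p among those called, and the 3 most like genes of 5 of the 10. SNRK2.4, SNRK2.10 and SAG12 served as checks. Marker lists covered mesophyll, companion cell and vein, guard cell, root and flower, and flower markers together stood at 0.695 to 10.7 CPM, root markers at 0 to 1.9 and guard cell markers at 411 to 524 CPM at 25 DAS and 56.6 to 110 at 45 DAS. The guard cell sum followed GC1, at 403 and 25.1 CPM in young and old wild type and 416 and 55.6 in the mutant. MYB60 and FAMA also fell in both genotypes. KAT1 rose in wild type, from 12.3 to 26.0 CPM, and fell in the mutant, from 20.0 to 13.0. Alternatives were other scalings, filters, DESeq2 1.42.0, thinned counts, 2-group fits, limma voom with a variance per group, a block on replicate number, and leaving out every library in turn. Scaling by library totals was added after the data were seen. Counts were thinned in a single random draw, so values on thinned counts also carry the sampling noise of that draw. No libraries were identical: over 40 pairs within groups the smallest chi-square per gene was 1.34. The longest exact run shared by the last 500 transcript bases of a pair of glutamine synthetase genes was 44 bases, between GLN1;1 and GLN1;2. Python 3.11.15, NumPy 2.4.6, pandas 2.3.3 and matplotlib 3.10.9 were used for sequences and figures.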

Additional observations from a re-analysis of the deposited data

Results flagged for a closer look

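Of 40 sets of 5 libraries (10 genes in 4 groups), 3 held a library set apart from the rest by a gap that chance gives in about 1 of 20 sets, all of them in wild type at 45 DAS. GLN1;2 in replicate 5 was at 642 CPM with the nearest library at 426. GDH3 in replicate 5 was at 58.9 CPM with the nearest at 18.1. ASN2 in replicate 1 was at 19.6 CPM with the nearest at 4.81. The change with age differed between the genotypes by a test of that difference for GLN1;3 (mutant minus wild type, -1.15 on the log2 scale) and for GDH1 (1.91).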

How the results depend on the processing

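Over 1538 values of the 10 genes under alternatives, 1461 kept direction and call, 31 lost a call, 26 gained one and 20 changed sign. Calls held in every alternative for 9 genes with age in wild type (all but GDH2), for 7 in the mutant, for GDH1 at 25 DAS, for GDH1 and NRT1.7 at 45 DAS and for GDH1 in the age difference. Causes were not tested. Of the 10 genes, the number differing at 25 DAS was 1, and 2 with DESeq2, 3 with only the groups compared and 3 with limma voom. At 45 DAS it was 5, and 2 on thinned counts, 2 with only the groups compared and 3 with voom. In the age difference it was 2, and 1 on thinned counts, while voom also called GLN2 (0.75, adjusted p = 0.0381). Of the listed nitrogen genes, 11 in place of 6 differed at 25 DAS and 5 in place of 17 at 45 DAS with only the groups compared, and the age difference held for 2 on thinned counts and 4 with a replicate block in place of 7. Over all genes, 3.16% were called at 25 DAS, and 4.26% with DESeq2, 9.15% with only the groups compared and 6.8% with voom (1121 genes with only the groups compared and 986 with voom, in place of 459). At 45 DAS the share was 9.93%, and 9.9%, 3.41% and 7.69% (393 in place of 1440 with only the groups compared).

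Leaving out 1 library gave 9 to 10 and 7 to 8 genes of the 10 with age in wild type and mutant, 1 to 3 at 25 DAS, 2 to 7 at 45 DAS and 2 to 5 in the age difference, and 41 to 44, 38 to 41, 5 to 9, 12 to 22 and 1 to 10 listed nitrogen genes. At 25 DAS the count was 2 without old wild-type replicate 1 and 3 without replicate 5. At 45 DAS it was 3 without wild-type replicate 3, 2 without replicate 5, 2 without mutant replicate 1, 2 or 3 and 3 without mutant replicate 4. In the age difference it was 5 without old wild-type replicate 1. The GLN1;1 share was 2.99% to 3.67% and 1.96% to 2.54% in young wild type and mutant and 69.1% to 72.6% and 60.5% to 61.8% in old ones, and the GLN2 share 83.1% to 83.9%, 82.6% to 83.3%, 3.04% to 4.47% and 7.83% to 8.30%.

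The log2 values that changed sign were not called in the alternative that changed them. On thinned counts they were 0.016 for GDH1 with age in the mutant, -0.071, 0.022 and 0.13 for GLN1;3, GLN2 and NRT1.7 at 25 DAS and 0.21 and -0.49 for GDH2 and ASN2 in the age difference. Scaling by library totals, which moved the median of all genes to 0.724 and 0.747 with age in wild type and mutant, gave 0.40 for GDH1 with age in the mutant and called GLN1;2 there (0.84). Voom gave 0.34 for ASN2 at 45 DAS. Leaving out 1 library gave -0.22 to 0.11 for NRT1.7 and -0.048 to 0.0045 for GLN2 at 25 DAS, -0.11 to 0.021 for GLN1;4 and -0.74 to 1.00 for ASN2 at 45 DAS, and in the age difference -0.31 to 0.053 for GLN1;1, -0.47 to 0.26 for GDH2 and -0.22 to 1.52 for ASN2, called at its upper end only.

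The labels give the replicate numbers no meaning. Over 30 same-numbered pairs the correlation of deviations from group means ran from -0.23 to 0.364, 6 of them over 0.1. The median was 0.0213, against -0.0082 for other pairs, and these values cannot exclude a pairing. With a replicate block 10, 7, 1, 6 and 2 of the 10 genes were called in the 5 comparisons, against 10, 7, 1, 5 and 2, with GLN1;3 at 45 DAS gained. Few counts limit GDH3 and, in old leaves, ASN2. Thinned counts also ended the calls of GLN1;3 in the age difference, of GDH2 with age in wild type, and of GLN1;1, GLN2 and GDH2 at 45 DAS.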

Other observations

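In old wild-type leaves replicate 5, which had the most SAG12, was the highest of 5 libraries for GLN1;1, GLN1;2, GLN1;3, GDH2, GDH3 and NRT1.7 and the lowest for GLN1;4, GLN2, GDH1 and ASN2, so that it stood at an end of the range for 10 of 10 genes. Over all 14062 genes ranked in these libraries, replicate 5 was the highest or the lowest for 55%, and replicate 1 for 47.9%.

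The coefficient of variation between libraries was larger in wild type than in the mutant at 45 DAS for 9 of the 10 genes, GLN1;4 being the exception, and for 69.6% of all genes. Wild type had a median over the 10 genes of 30% and the mutant of 10.5%, against 28.5% and 20.9% over all genes. At 25 DAS it was larger in wild type for 3 of the 10 genes and for 47.9% of all genes.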
